A study of Sus scrofa with 32 samples.

Results

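The cells described here are B cells of pig blood in which no CCR7 transcript was counted. They were taken from the peripheral blood mononuclear cells (PBMC) of 2 mixed-breed pigs, both 7 weeks old, pig 1 labelled female and pig 2 labelled male. A barcode was used as a cell if it passed a minimum of unique molecular identifiers (UMIs, each 1 captured transcript) and held at least 550 genes and at most 12.5% of UMIs from mitochondrial genes, and the cells described held 1251 to 18291 UMIs. A cell was taken as a B cell if CD79B and MS4A1 together had at least 3 UMIs, CD3E had 0 and JCHAIN took less than 0.5% of its UMIs. The B cells with 0 UMIs of CCR7 are called CCR7-negative, and those with at least 1 are called CCR7-positive. CCR7-negative therefore means that the transcript was not captured, which does not show that the cell lacked it.

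There were 2101 CCR7-negative B cells among 13243 blood cells that passed and 48629 passing cells of blood and ileum together. Pig 1 gave 1253 of them and pig 2 gave 848. They were set beside 442 CCR7-positive B cells (201 and 241 in pig 1 and pig 2), 10700 other PBMC, and 11533 ileal CCR7-negative B cells chosen in the same way. By the labels, each pig gave 1 PBMC library, made with droplet 3′ capture, and 3 ileal libraries. The ileal libraries were from a piece with Peyer's patches, a piece without them and a whole cross section. The whole-ileum library labelled pig 1, a female, held Y-linked transcripts, as given below. PBMC came from blood drawn into cell preparation tubes, whereas ileum was dissociated to single cells. The labels give no treatment, and the 4 sequencing runs listed for each library were counted as 1 sample. The PBMC matrices held 36465389 UMIs in pig 1 and 38240907 in pig 2. With 2 pigs, every comparison rests on 2 values per class.

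CCR7 is the chemokine receptor that draws lymphocytes into lymph nodes and Peyer's patches along the ligands CCL19 and CCL21. Circulating B cells leave tissue through S1PR1, a receptor for sphingosine 1-phosphate, and the transcription factor KLF2 keeps this gene on in resting lymphocytes. Memory B cells found outside follicles in mice and humans often carry the transcription factor T-bet (TBX21) and CD11 integrins and have less CCR7.

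CCR7-negative B cells made up 19.4% of passing PBMC in pig 1 (95% Clopper-Pearson interval 18.5 to 20.4) and 12.5% in pig 2 (11.7 to 13.3). Among blood B cells they made up 86.2% (84.3 to 87.9) and 77.9% (75.3 to 80.3). These values describe the selection and were not tested, and the intervals cover counting error only. Most of the separation from CCR7-positive cells was a single molecule, since 169 of the 201 CCR7-positive cells of pig 1 and 166 of the 241 of pig 2 held exactly 1 CCR7 UMI. Over all blood B cells, CCR7 stood at 42.8 CPM (the class's counts scaled to a fixed total of UMIs) in pig 1 and 65.3 CPM in pig 2, which is 0.174 and 0.334 UMIs per cell. In CD3E-positive cells a CCR7 UMI was found in 17.1% (median depth 3155.5 UMIs) and 32.4% (3373 UMIs). In cells with monocyte markers, which should lack CCR7, the share was 0.690% (2 of 290, 6847 UMIs) and 1.84% (16 of 869, 7512 UMIs).

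The CCR7-negative share did not move steadily with depth. In pig 1 it was 85.7% (162 of 189), 83.5% (303 of 363), 90.4% (506 of 560) and 82.5% (282 of 342) in cells of under 2000, under 3000, under 5000 and at least 5000 UMIs, each class starting where the one before it ends. In pig 2 it was 67.3% (37 of 55), 75.8% (150 of 198), 83.2% (303 of 364) and 75.8% (358 of 472). Median depths were 3535 and 4467.5 UMIs in CCR7-negative cells and 3346 and 4854 UMIs in CCR7-positive cells of pig 1 and pig 2. When each B cell was thinned to the minimum depth of a cell, 94.3% and 91.8% of B cells had no CCR7 UMI. The share was 87.4% and 79.1% among B cells of at least 3000 UMIs.

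**Figure D1:**
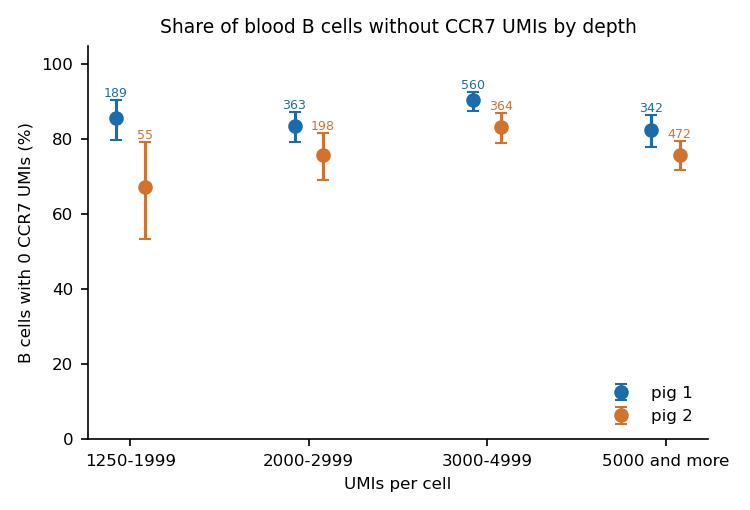
Percent of blood B cells with no CCR7 UMI (vertical axis) in 4 classes of UMIs per cell (horizontal axis), with 1 point per pig, bars for 95% Clopper-Pearson intervals and the number of B cells above each. Pig 1 lies between 82.5% and 90.4% and pig 2 between 67.3% and 83.2%, and neither rises or falls throughout.

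At the edges of the B cell threshold, 87 members of pig 1 and 39 of pig 2 held exactly 3 UMIs of CD79B and MS4A1, and 57 and 44 cells with exactly 2 lay just outside it. The median member held 8 such UMIs in pig 1 and 10 in pig 2. Between them, the 2 PBMC libraries shared 66 barcodes among passing cells, and 2 members carried a barcode that was also a member in the other library.

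The B cell label was checked on markers that the rule had not used. CD79A, the partner of CD79B in the B cell receptor, and PAX5 and EBF1, transcription factors of B cell identity, were each higher in CCR7-negative B cells than in other PBMC, by 4.26, 4.58 and 4.89 on the log2 scale. The defining T cell gene CD3E was 0 by the rule, and the other 9 genes of a T cell list, which the rule had not used, summed to 96.5 and 87.8 CPM in members against 1658 and 1522 CPM in other PBMC. The most abundant T cell gene in members was CD2, at 30.7 and 38.8 CPM.

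Transcripts of other blood cells were present. NK cell markers (5 genes) summed to 696 and 907 CPM, most of it GNLY, the antimicrobial protein granulysin, at 579 and 746 CPM. Monocyte markers (9 genes) summed to 268 and 551 CPM, led by LYZ, lysozyme, at 158 and 218 CPM. Platelet markers (3 genes) summed to 70.0 and 153 CPM, led by ITGA2B at 44.5 CPM in pig 1 and by PPBP at 111 CPM in pig 2. ITGA2B was at 39.0 and 33.8 CPM in ileal CCR7-negative B cells as well. Red cell markers (4 genes) differed most between the pigs, at 9823 and 1439 CPM, nearly all from HBB, the haemoglobin beta chain, which had a UMI in 96.5% of members of pig 1 and 71.0% of pig 2. Red cell markers stood at 34736 and 1668 CPM in CCR7-positive B cells and at 12453 and 1739 CPM in other PBMC. Part of the member counts sat in 4 groups of cells described next, without which NK markers stood at 356 and 326 CPM, monocyte markers at 146 and 226 CPM and red cell markers at 1422 and 280 CPM. Their part in the results was not tested beyond the values given without those groups.

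Clustering divided the CCR7-negative B cells into 11 groups. The leading genes below were chosen by the same cells that formed the groups, so they are described and not tested, and CCR7-positive cells were placed afterwards in the group most common among their 20 nearest members. Groups 7, 9, 10 and 11 together held 173 members (8.23%) and were led by genes of other blood cells. Group 7 (90 cells) was led by PPBP, a platelet chemokine, at 860 CPM, group 9 (43 cells) by GNLY at 14067 CPM, group 10 (23 cells) by FCN1, a monocyte lectin, at 1883 CPM, and group 11 (17 cells) by HBB at 324912 CPM. A doublet score over 0.25 was given to 60.5% of group 9 and 56.5% of group 10, and 15 of the 17 cells of group 11 came from pig 1. The other 1928 cells lay in 7 groups.

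**Figure D2:**
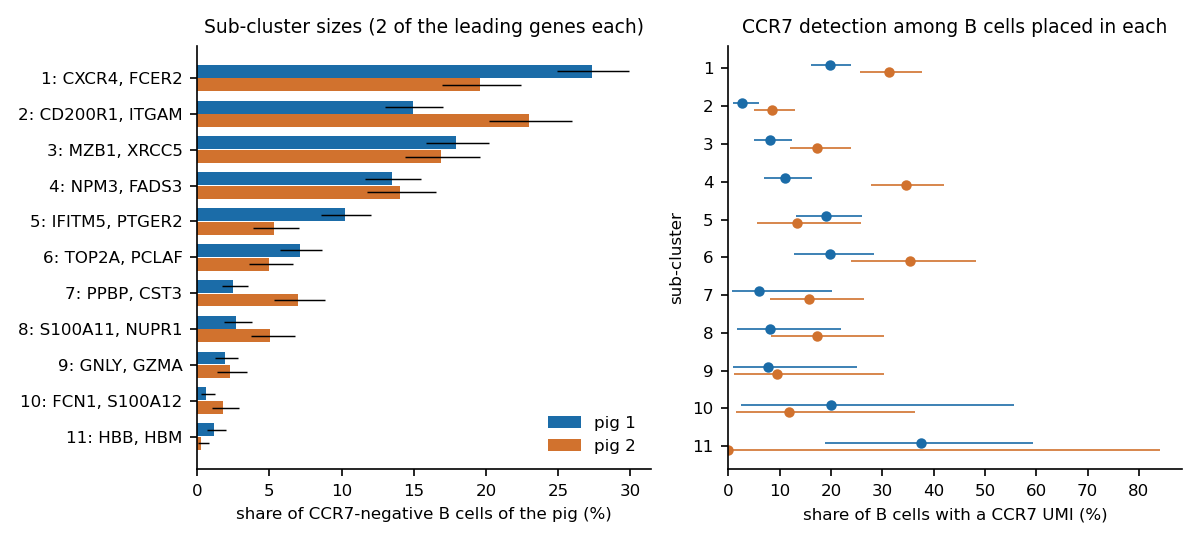
Percent of each pig's CCR7-negative B cells in each of the 11 groups (left, bars from 0, each group with 2 of its leading genes), and the percent of each group's blood B cells that were CCR7-positive (right, points), both with 95% Clopper-Pearson intervals. Group 1 is the most populous in pig 1 and group 2 in pig 2, and group 2 has CCR7-positive shares of 2.60% and 8.45%.

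Group 1, the most populous with 509 cells, held 27.4% of members in pig 1 and 19.6% in pig 2. It was led by CXCR4, the receptor that holds B cells in bone marrow and germinal centers, at 73.2 CPM in pig 1 and 168 CPM in pig 2, against 9.80 CPM over the rest. FCER2 (CD23), a low-affinity IgE receptor of resting follicular B cells, was at 66.9 and 28.4 CPM against 4.40 CPM in the rest. BACH2, a repressor that holds back plasma cell formation, was at 27.8 and 26.2 CPM. These cells were the shallowest of the 7 groups, with a median of 2293 UMIs.

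Group 2 (382 cells, 14.9% of members in pig 1 and 23.0% in pig 2) and group 5 (173 cells, 10.2% and 5.31%) shared high levels of ZBTB32, a repressor that limits recall by memory B cells. ZBTB32 stood at 639 and 623 CPM in group 2 and at 703 and 661 CPM in group 5. In group 2, ITGAM, the CD11b integrin chain, was at 213 and 440 CPM, and CD200R1, an inhibitory receptor, was at 132 and 165 CPM against 27.5 CPM in the rest. S1PR5, another sphingosine 1-phosphate receptor, was at 91.3 and 112 CPM there. In group 5, TBX21 was at 154 and 90.5 CPM against 33.1 CPM in the rest, PTGER2, a prostaglandin E2 receptor, at 334 and 164 CPM, and FGR, a Src family kinase, at 115 and 73.8 CPM.

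Both of these groups were low in ITGA4, the alpha-4 integrin chain, which was at 1.52 and 8.68 CPM in group 2 and at 9.46 and 13.4 CPM in group 5, while group 1 had 138 CPM in each pig. S1PR1, summed over the pigs, was between 114 and 169 CPM in all of groups 1 to 6 and 8. CCR7-positive cells placed with group 2 were 2.60% of its B cells in pig 1 (0.851 to 5.97) and 8.45% in pig 2 (5.09 to 13.0), against 19.9% (16.2 to 24.0) and 31.4% (25.6 to 37.7) in group 1. In group 5 they were 19.0% (13.2 to 26.0) and 13.5% (5.59 to 25.8), which in pig 1 was close to group 1, while in pig 2 it lay between group 2 and the other groups of the 7, with an interval that overlapped that of group 2.

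Group 6 (131 cells, 7.10% and 4.95% of members) held dividing cells by its genes. TOP2A, which untangles DNA at mitosis, was at 473 and 590 CPM against 4.89 CPM in the rest, and PCLAF, a partner of the replication clamp, was at 777 and 728 CPM against 12.8 CPM. JCHAIN, which links antibody polymers, was at 464 and 723 CPM, below the limit of the rule. Group 6 was the deepest of the 7, at a median of 7417 UMIs, and its CCR7-positive shares were 19.8% and 35.4%.

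Group 8 (77 cells, 2.71% and 5.07%) had among its leading genes S100A11, a calcium-binding protein, at 678 and 828 CPM against 101 CPM in the rest. CCR9, a gut homing receptor, was at 76.9 and 85.7 CPM, and BHLHE41, a transcription factor known from B-1 cells, at 119 and 297 CPM. Groups 3 (368 cells) and 4 (288 cells) were set apart weakly. MZB1, an endoplasmic reticulum chaperone of antibody, led group 3 at 377 and 260 CPM against 185 CPM in the rest, and NPM3, a histone chaperone, led group 4 at 217 and 203 CPM against 65.6 CPM. At a lower resolution the grouping gave 7 clusters and at a higher one 14, and the share of group 1 that stayed together was 99.8% and 52.8%, while group 2 kept 99.5% and 89.8%.

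**Figure D3:**
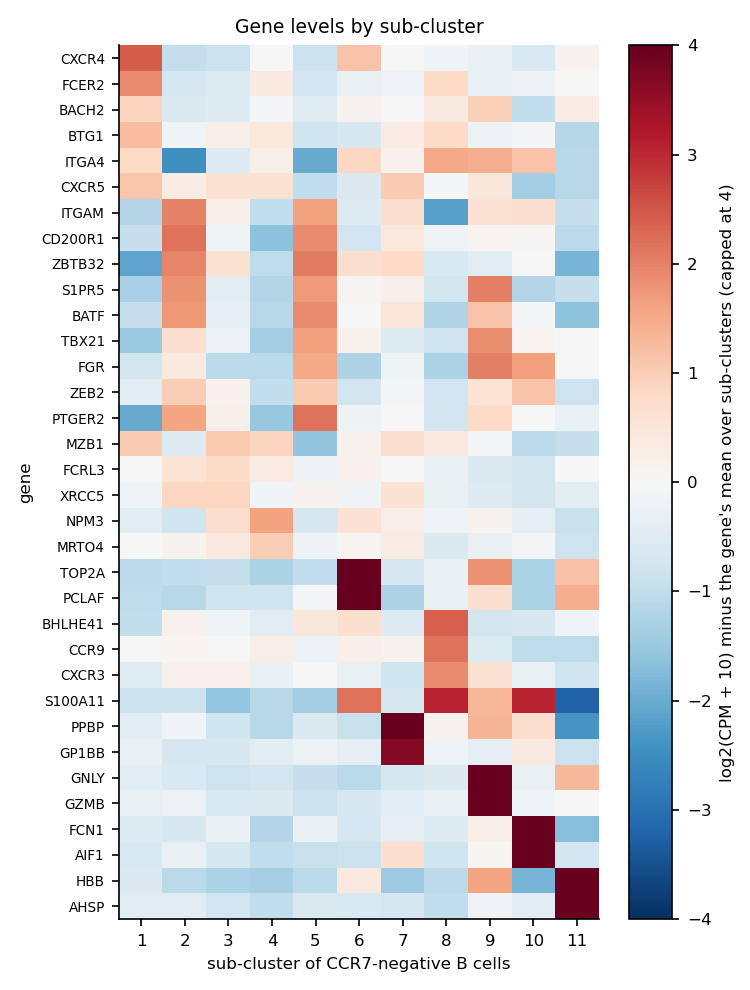
Level of homing, memory, cycling and other-cell genes (rows) in each of the 11 groups of CCR7-negative B cells (columns), as the log2 of CPM plus 10 minus the gene's mean over groups (colour, ending at 4 in each direction). ZBTB32 is high in groups 2 and 5, TOP2A in group 6, CXCR4 in group 1, CCR9 in group 8, and PPBP, GNLY, FCN1 and HBB each stand out in 1 of groups 7, 9, 10 and 11.

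The first comparison asked how CCR7-negative B cells of blood differed from CCR7-positive ones of the same pigs. Since the rule divided these cells, the gene values are given as a description. Counts were summed per pig and class and fitted over 6 sums (CCR7-negative, CCR7-positive and other PBMC) with edgeR's quasi-likelihood test. No gene of 9273 passed a Benjamini-Hochberg adjusted p of 0.05 in either direction (0%), and none did with DESeq2 or with the pig as a block. With the block on the 4 blood B cell sums alone, a fit added after the data were seen with 1 residual degree of freedom, 90 genes were higher and 133 lower. Its calls included red cell genes that did not differ alike in both pigs. AHSP, a chaperone of haemoglobin, was called lower at 35.3 CPM against 161 CPM in CCR7-positive cells of pig 1 but 7.57 CPM against 0.741 CPM in pig 2, and HBB was called lower at 9638 CPM against 33988 CPM in pig 1 and 1413 CPM against 1654 CPM in pig 2. That fit is therefore used for no gene below. At an unadjusted p below 0.05 there were 151 genes higher (1.63%) and 143 lower (1.54%). Log2 differences had the same sign in both pigs for 29.1% of genes on the higher side and 26.4% on the lower side, and their median over all genes was 0.00. On simulated data of this size 57.6% of genes changed by 2 on the log2 scale were called and 13.4% of those changed by 1. The simulated sums were drawn independently, whereas real sums of the same pig shared deviations, so these rates need not hold for the real data.

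Cell cycle genes had lower values in CCR7-negative cells. Of 17 listed, 16 were lower in both pigs, CDK1, the mitotic kinase, being the exception, on TMM-scaled values. On CPM as printed here UBE2C, a mitotic ubiquitin-conjugating enzyme, was level in pig 2, at 63.2 CPM in CCR7-negative and 63.0 CPM in CCR7-positive cells. TUBB was level in pig 1, at 298.5 and 298.6 CPM. The log2 difference of CENPF turned to 0.12 when cells were thinned. The median log2 difference of the list was −0.56, beside 0.00 over all genes. Group 6, the dividing cells, held 7.10% of CCR7-negative and 10.9% of CCR7-positive cells in pig 1. In pig 2 these shares were 4.95% and 9.54%. The part of group 6 in the difference was not tested. PCLAF was at 116 and 72.4 CPM in CCR7-negative cells of pig 1 and pig 2 and at 231 and 159 CPM in CCR7-positive cells (log2 difference −1.11 ± 0.37 SE). HMGB2, a chromatin protein of dividing cells, was at 564 and 407 CPM against 924 and 668 CPM. Neither difference passed the test. In a fit added after the data were seen, without groups 7, 9, 10 and 11 and with the pig as a block, PCLAF had a log2 difference of −1.08 and an adjusted p of 0.0425 (edgeR), and 1 other gene passed there, which has no symbol in the files.

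Among homing genes, 5 of 16 were higher and 7 lower in both pigs, with a median of −0.16. CXCR4 was at 23.7 and 22.5 CPM against 29.1 and 57.0 CPM (−0.99 ± 0.30 SE), where the lower CCR7-positive value lay near the CCR7-negative ones. Of 16 memory and T-bet genes, 7 were higher and 2 lower in both pigs, with a median of 0.19. ZBTB32, after the same thinning, had a UMI in 21.3% and 23.7% of CCR7-negative cells and in 13.9% and 12.4% of CCR7-positive cells. In CD3E-positive cells the thinned share was 1.40% and 3.84%, and without thinning the shares were 39.7% and 50.9% against 31.8% and 34.9% in the B cell classes.

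Of 21 B cell identity genes, 16 were higher and 2 lower in both pigs, with a median of 0.14. CD72, an inhibitory co-receptor, was at 123 and 104 CPM in CCR7-negative cells and at 72.2 and 71.1 CPM in CCR7-positive cells. MHC class II genes were higher in both pigs for 8 of 11 and lower for 2, with the same median of 0.14. The NK list of 11 genes was higher in both pigs for 6 and lower for 0 (median 0.36). GNLY was at 579 and 746 CPM against 447 and 355 CPM, and without groups 7, 9, 10 and 11 its log2 difference was −0.21.

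Some other single genes were picked after their values were seen. COBLL1, an actin-binding protein, stood at 40.3 and 37.6 CPM in CCR7-negative cells and at 14.0 and 16.3 CPM in CCR7-positive cells (1.29 ± 0.23 SE). SOX5, a transcription factor found in memory-like B cells, was at 15.2 and 9.94 CPM against 5.39 and 2.96 CPM. The values in CCR7-positive cells rested on only 5 and 4 UMIs of SOX5. GCSAM, a signalling protein of germinal centers, was at 7.62 and 8.99 CPM against 21.56 and 19.997 CPM (−1.38 ± 0.24 SE). S100A11 was at 107 and 144 CPM against 263 and 193 CPM (−0.92 ± 0.25 SE). None of these genes passed the adjusted threshold over the 6 sums.

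**Figure D4:**
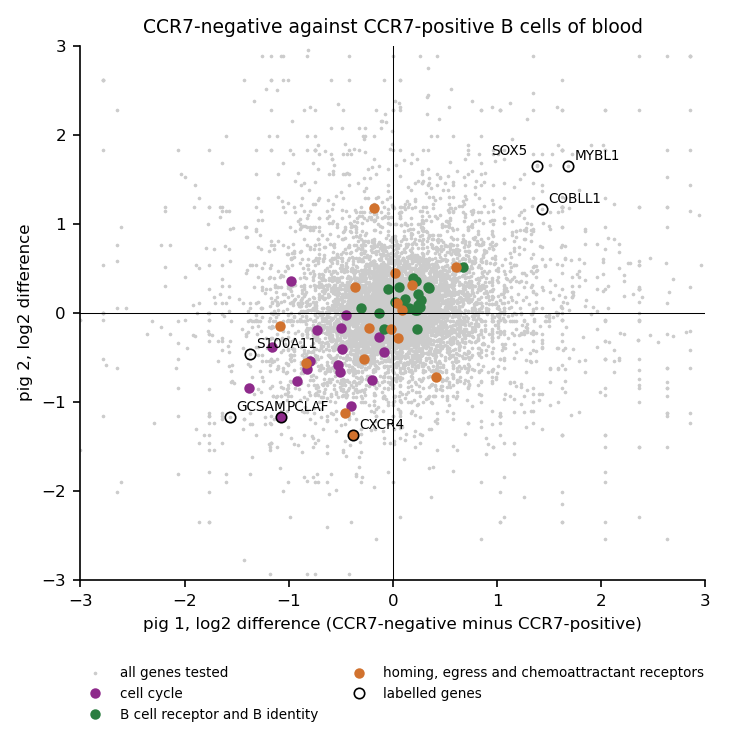
Log2 difference between CCR7-negative and CCR7-positive B cells of blood in pig 1 (horizontal axis) and pig 2 (vertical axis), 1 point per gene, with listed cell cycle, homing and B cell identity genes coloured and 7 genes labelled. Of the genes tested, 226 lie outside the axes, which end at 3 in each direction, and 16 of the 17 cell cycle genes lie, on TMM-scaled values, where both pigs are below 0.

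The second comparison placed CCR7-negative B cells beside the other PBMC, mainly T cells, NK cells and monocytes. The rule chose B cells by CD79B, MS4A1 and CD3E, so this contrast describes what a B cell is in these libraries. Its counts are given only as a description. Of 9273 genes, 809 were higher (8.72%) and 945 lower (10.2%) at an adjusted p below 0.05 (edgeR), and 1610 and 1843 with the pig as a block. On this test 19 of 21 B cell identity genes were higher, CD81 and IKZF3 not passing. Of the listed T cell genes 14 of 14 were lower, of NK genes 11 of 11 and of monocyte genes 16 of 17. Without the CCR7-negative sum of pig 1 627 of the 1754 calls remained.

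Antigen presentation genes were high in CCR7-negative B cells, with 9 of 11 MHC class II genes higher and 0 lower. CD74, the invariant chain, was at 8227 and 7525 CPM against 1574 and 1781 CPM in other PBMC. Of homing genes 4 of 16 were higher and 7 lower. CXCR5, the receptor for the follicle chemokine CXCL13, was at 37.1 and 39.8 CPM against 5.01 and 3.67 CPM, and KLF2 was at 677 and 680 CPM against 412 and 375 CPM. The other genes higher were GPR183, an oxysterol receptor that positions B cells, and S1PR1, the latter with an adjusted p of 0.1248 (edgeR) without the CCR7-negative sum of pig 1 and no call without that of pig 2. ITGA4 was lower, at 80.1 and 83.1 CPM against 303 and 226 CPM.

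Of 16 memory and T-bet genes, 5 were higher than in other PBMC, namely ZBTB32, SOX5, the inhibitory Fc receptor-like genes FCRL3 and FCRL4, and TNFRSF13B (TACI), a receptor for BAFF and APRIL. ZBTB32 was at 275 and 293 CPM against 23.2 and 31.3 CPM. FGR, HOPX and TNFRSF1B were lower. S100, annexin and cytoskeleton genes were lower for 14 of 24 and higher for 0, with S100A4 at 69.6 and 95.8 CPM against 1224 and 1233 CPM. None of 16 interferon-stimulated genes passed, and these varied more by pig than by class. IFI6, for example, was at 970 CPM in members of pig 1 and 2534 CPM in pig 2, and at 1985 and 5101 CPM in other PBMC.

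Among genes outside the lists, those with the largest positive differences were the gene listed as ZNF70 (243 and 320 CPM against 9.63 and 9.90), KLK1 (a kallikrein), CMYA5, LAMP3 (a lysosomal membrane protein) and SCIMP (an adaptor of MHC class II signalling). Their log2 differences were 4.98, 4.75, 4.61, 4.48 and 4.45. On the lower side the rule named GZMK (granzyme K, −5.58), TNIP3 (−5.25), GATA3 (a T cell transcription factor, −5.21), TRAT1 (−4.71) and SH2D1A (−4.68), all of which are known from T or NK cells except TNIP3, an inhibitor of NF-kB signalling.

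The third comparison asked how CCR7-negative B cells of blood differed from those of the ileum, to which the same rule was applied. The whole-ileum library labelled pig 1, a female, held Y-linked transcripts. DDX3Y, EIF1AY, KDM5D and ZFY summed there to 207 CPM in 47.0% of cells, against 0.224, 0.161 and 0 CPM in the other libraries labelled pig 1. Libraries labelled pig 2 held 119 to 226 CPM, in 39.8% to 49.6% of cells. The whole-ileum library labelled pig 1 gave 1536 CCR7-negative B cells to the ileal sum of pig 1. With it included, the 2 ileal sums may not come from separate animals. Results are therefore given with both whole-ileum libraries and, where a call changes, without them. Ileal sums hold germinal center and cycling B cells besides resting ones, and tissue, dissociation and library preparation cannot be told apart. In this bulk-like sum, fewer cells of a type and less RNA per cell cannot be told apart either.

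Of 9099 genes, 2132 rose (23.4%) and 2141 fell (23.5%) in blood relative to ileum at an adjusted p below 0.05 (edgeR, 8 sums of blood and ileal B cells), and 1796 and 1787 without whole ileum. Homing and egress genes rose for 11 of 17 and fell for 2. S1PR1 was at 145 and 124 CPM in blood and at 3.73 and 2.22 CPM in ileum (5.70 ± 0.24 SE on the log2 scale, adjusted p 1.86e-06 by edgeR). KLF2 was at 677 and 680 CPM against 48.1 and 24.2 CPM. CCR9 rose by 2.73 ± 0.44 SE, from 2.63 and 2.00 CPM to 9.03 and 18.0 CPM. These values set CCR7-negative cells of blood beside CCR7-negative cells of ileum only. In ileal CCR7-positive B cells S1PR1 was at 30.0 and 22.2 CPM and KLF2 at 359 and 210 CPM. CCR9 had 35 and 57 UMIs in those 1351 cells, against 50 and 55 UMIs in the 11533 ileal CCR7-negative cells.

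The 2 homing genes that fell were CXCR4 and S1PR2, both known for holding B cells in germinal centers. CXCR4 was at 23.7 and 22.5 CPM in blood and 471 and 545 CPM in ileum (−4.28 ± 0.24 SE, adjusted p 5.08e-06 by edgeR). S1PR2 had 3 UMIs in all blood members against 5442 in ileum, a ratio of 359 (95% counting interval 123 to 1741).

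Germinal center genes fell for 9 of 10. BCL6, the master repressor of germinal center B cells, fell by 3.59 and MYBL1, a transcription factor of the same cells, fell by 3.32 on the log2 scale. RGS13, which dampens chemokine receptor signals, had 0 UMIs in 2101 blood members and was at least 408-fold lower, taking 3 counts over both pigs as the floor. CD38 rose, at 144 and 251 CPM against 22.1 and 18.0 CPM.

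All 17 cell cycle genes fell, with PCLAF at 116 and 72.4 CPM against 838 and 974 CPM and TOP2A at 65.6 and 57.0 CPM against 297 and 349 CPM. Of 21 activation genes, 12 fell and 3 rose. FOS, an immediate early gene that dissociation is known to induce, was at 11.2 and 15.9 CPM in blood and 221 and 134 CPM in ileum (−3.53 ± 0.34 SE), and CD83, a B cell activation marker, fell by 2.72. The genes that rose were IER5, CCL3L1 and MYC, the last with an adjusted p of 0.0503 without the ileal sum of pig 2.

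Memory and T-bet genes rose for 10 of 16 and fell for 2. ZBTB32 was at 275 and 293 CPM in blood and 6.93 and 5.20 CPM in ileum (5.74 ± 0.18 SE, adjusted p 4.29e-07 by edgeR). TBX21 was at 46.5 and 39.5 CPM against 4.15 and 1.96 CPM, and ZEB2, a transcription factor that works with T-bet, at 82.9 and 84.3 CPM against 3.41 and 2.07 CPM. CD80, a T cell costimulator carried by memory B cells, rose by 3.39 ± 0.37 SE. NK genes rose with them, for 8 of 11, and some of the memory and T-bet genes that rose were higher still in other PBMC. TBX21 stood there at 111 and 65.1 CPM against 46.5 and 39.5 CPM in members, and HOPX at 298 and 214 CPM against 29.3 and 26.5 CPM. FGR and ZEB2 were also higher there in both pigs, ZEB2 at 94.3 and 103 CPM. Without groups 7, 9, 10 and 11 the log2 differences from ileum were 5.81 for ZBTB32, 3.94 for TBX21, 5.11 for ZEB2, 1.61 for FGR and 1.79 for HOPX, and the part of other cells' transcripts was not tested further.

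S100, annexin and cytoskeleton genes rose for 20 of 24, S100A4 by 5.54 and VIM (vimentin) by 4.16 on the log2 scale. S100A4 was at 69.6 and 95.8 CPM in members against 1224 and 1233 CPM in other PBMC, and GNLY and LYZ, markers of those cells, also rose against ileum, by 2.04 and 3.99. Without groups 7, 9, 10 and 11 the differences were 4.85 for S100A4, 4.14 for VIM, 0.74 for GNLY and 3.32 for LYZ, and the part of other cells' transcripts was not tested further. LGALS3 was the 1 that fell, with an adjusted p of 0.0867 without whole ileum. Interferon-stimulated genes rose for 15 of 16, USP18 not passing. MX1, which blocks viral replication, was at 44.9 and 56.8 CPM against 9.30 and 8.54 CPM, and IFI6 at 970 and 2534 CPM against 162 and 196 CPM. ISG15, a ubiquitin-like modifier, rose by 2.69, with an adjusted p of 0.0532 without the CCR7-negative sum of pig 2.

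MHC class II genes rose for 9 of 11 and fell for 0, by small amounts. CD74 rose by 0.75 ± 0.10 SE and SLA-DRA, the alpha chain of the DR molecule, by 1.15 ± 0.13 SE. These rises are over ileal CCR7-negative cells. In ileal CCR7-positive B cells CD74 was at 9414 and 9366 CPM, above the 8227 and 7525 CPM of blood members. SLA-DRA was at 3248 and 3668 CPM there, against 3456 and 2964 CPM in blood members. In a list of Toll-like receptors, CD180 and related genes, 9 of 11 rose. The 9 were TLR1, TLR2, TLR6, TLR8, TLR10, CD180, LY86, MYD88 and UNC93B1. TLR10 was at 25.9 and 27.7 CPM against 5.67 and 6.90 CPM, whereas TLR9, the receptor for unmethylated DNA, fell by 2.68 ± 0.29 SE. Among 8 B-1 and marginal zone genes 5 rose and 3 fell, BHLHE41 being at 37.9 and 37.9 CPM against 2.57 and 2.33 CPM. Genes of resting B cells were mixed, 5 rising and 3 falling of 12. KLF3, a repressor of the Krüppel-like family, rose by 5.49 and TXNIP, a brake on glucose uptake, by 2.74, while BACH2 fell by 1.95 on the log2 scale.

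**Figure D5:**
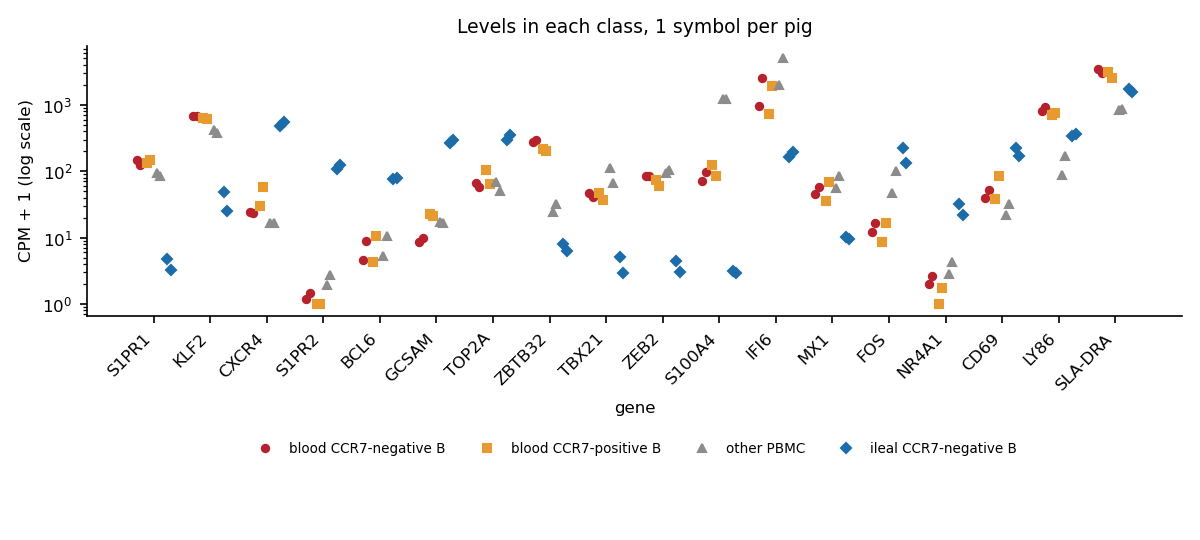
Level as CPM plus 1 (log scale) of 18 genes chosen after their values were seen in CCR7-negative and CCR7-positive B cells of blood, other PBMC and ileal CCR7-negative B cells, 1 point per pig. S1PR1, KLF2 and ZBTB32 are higher in blood CCR7-negative B cells than in ileal CCR7-negative ones in both pigs, and CXCR4 and TOP2A are lower in both.

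Among genes outside the lists, the rule on fold size named for blood FUT7, a fucosyltransferase of leukocytes, S1PR5, TBC1D9, CAMK2N1 and SNCG. Listed genes of other blood cells rose further than some of these, as FCN1, which was at least 899.8-fold higher. FUT7 was at 21.9 and 27.9 CPM in blood and had 0 UMIs in ileum, at least 382-fold higher. S1PR5 had 345 UMIs against 3, a ratio of 581 (197 to 2833). CAMK2N1, an inhibitor of a calcium-dependent kinase, was at 70.4 and 76.0 CPM against 1.16 and 0.582 CPM. SNCG had an adjusted p of 0.0627 without the CCR7-negative sum of pig 1, where it was at 37.3 CPM against 7.81 CPM in pig 2. It stood at 1423 CPM in group 11, the 17 cells led by HBB, and at 2.32 CPM over all other members.

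The unlisted genes named for their decrease were KRT8, TFF3, GP2, SPAI-2 and MARC2, most of them known from gut epithelium. KRT8, a keratin, had 0 UMIs in blood and was at 35.7 and 21.6 CPM in ileum, at least 83.9-fold lower, and did not pass when members needed 6 UMIs of CD79B and MS4A1. TFF3, the trefoil peptide of goblet cells, had 2 UMIs in blood, and in ileum it was at 412 CPM in pig 1 and 13.4 CPM in pig 2, so the size of its difference rested on pig 1. TFF3 did not pass without the CCR7-negative sum of either pig (adjusted p up to 0.0962). GP2, a receptor of M cells, had 2 UMIs against 5190, a ratio of 513 (142 to 4240). SPAI-2, a protease inhibitor, had 1 UMI against 3971, an adjusted p of 0.0621 without whole ileum and no call without the CCR7-negative sum of pig 1. MARC2, a mitochondrial reductase, had 1 UMI against 4973. Within ileum GP2 was at 96.7 and 122 CPM in CCR7-negative and 26.9 and 48.1 CPM in CCR7-positive B cells. MARC2 was at 83.9 and 123 CPM against 23.8 and 24.0 CPM, whereas KRT8 was at 35.7 and 21.6 CPM against 78.6 and 26.6 CPM. TFF3 was higher in ileal CCR7-negative cells in both pigs, and SPAI-2 in pig 2 only. Blood cell markers moved in the other direction, HBB by 7.80, PPBP by 8.85, LYZ by 3.99 and GNLY by 2.04 on the log2 scale, and the part that transcripts of other cells had in these differences was not tested.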

How the data were processed

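Droplet 3′ libraries (version 2 chemistry) of PBMC and ileum of 2 pigs were used. The authors deposited raw UMI counts per gene and barcode (25880 genes), made with Cell Ranger from a pig annotation they had modified, with no ambient RNA or doublet removal. The submitters' processing notes name Cell Ranger 4.0.6. Matrices were matched to pig and tissue by name, and 7161 genes had no symbol.

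Cells were selected as in the opening. Doublet scores (simulated doublets at a rate of 0.07, threshold 0.25) were not used in the main selection. Members were clustered with scanpy 1.11.5 and leidenalg 0.10.2. Counts were summed per pig and class and tested with edgeR 4.0.16 (filterByExpr, TMM, quasi-likelihood, Benjamini-Hochberg), leaving out genes of the rule. The main fits held the class alone, with no term for the pig. Levels are CPM of the summed UMIs, and log2 differences come from the fit. DESeq2 1.42.0, other scalings and filters, cell subsets and leaving out each sum were alternatives. Sums of the same pig shared deviations from their class means (r 0.536 to 0.731 over 6213 genes, and 0.247 to 0.657 over 5569 genes in the blood and ileum fit), and come from the same animal.

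Of 339 symbols in 21 lists, 304 were found. The members and lists were chosen with earlier results of these data known. The rule for named genes took listed genes that passed in the first comparison, of which there were 0, the 10 unlisted genes with the largest change in each direction there, and 5 in each direction in the other comparisons, with a symbol, an adjusted p below 0.05, the same direction in both pigs and a mean of at least 20 CPM in the higher class. All other genes given as examples, in the lists or outside them, were chosen after their values were seen. Values of some listed genes are not reported here.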

Additional observations from a re-analysis of the deposited data

How the results depend on the processing

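Limits. With 2 pigs, p-values of the main fits rest on the spread of sums within classes, shared over the classes and genes of a fit. They do not use the pairing of sums by pig. In simulated data of the first comparison, drawn without such pairing, 13.4% of genes changed by 1 on the log2 scale were called. CCR7-negative rests on not counting a transcript that averaged 0.174 and 0.334 UMIs per B cell, and thinning moved the CCR7-negative share to 94.3% and 91.8%. For CCR7-negative against CCR7-positive cells none of the other settings first chosen called a gene. Fits added after the data were seen, with the pig as a block, called 90 higher and 133 lower on 4 sums of blood B cells, where 1 residual degree of freedom was left, and 0 higher and 2 lower without the groups led by genes of other cells; with 8 or 10 sums they called 0. Reversed log2 differences there were CENPF at 0.12 (thinned), GNLY at −0.21 and −0.20 (without those groups, and also with the block) and NKG7 at −0.13 (cells with UMIs of other cell types left out). Against other PBMC, the counts were 1610 higher and 1843 lower with the pig as a block, 1638 and 1858 with the block and without those groups, 275 and 374 with cells holding UMIs of other types left out (which kept 40 and 195 members), and 1424 lower with no filter on low counts. Leaving out 1 sum gave 327 to 708 higher and 307 to 1105 lower. Against ileum, the counts were 1418 and 1374 thinned and 1072 and 1138 with cells holding other types' UMIs left out, and leaving out 1 sum gave 1459 to 1740 higher and 1530 to 1737 lower. CD8A reversed to −0.14 with such cells left out, KLRK1 to −0.020 (with the block) and CST3 to −0.35 without those groups. Scaling by library size alone shifted the median of all genes to −0.14 against other PBMC and −0.18 against ileum and gave 649 higher and 1165 lower, and 1661 and 2792. Causes were not tested.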
